A study of Mus musculus with 10 samples.

Results

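The genes described here are 10 mouse genes of the endoplasmic reticulum (ER) stress response, chosen by name: Hspa5, Hsp90b1, Pdia4, Dnajb9, Xbp1, Herpud1, Sdf2l1, Edem1, Calr and Creld2. All 10 were found among the 24016 gene symbols of the transcription table, as 12 of its 33022 transcript entries, and all 10 were among the 11602 genes tested. Their transcription was compared between organoids, which are miniature epithelia grown in gel from intestinal stem cells, of mouse duodenum in 2 media. ENRI, described by the labels as a medium for enterocyte differentiation, held EGF, Noggin and R-spondin together with IWP-2, a blocker of Wnt secretion, and lacked Wnt3A and CHIR-99021. WENRC, described as the stem cell medium, held the same 3 factors with Wnt3A and CHIR-99021, an inhibitor of GSK3 that activates Wnt signalling. Organoids of both media were therefore grown in Matrigel with EGF, Noggin and R-spondin, and differed in Wnt3A, CHIR-99021 and IWP-2 together. Titles number mouse 1 and mouse 2 in each medium, and the sources used here give no strain, age, sex, genotype or time in medium. Each medium had 2 libraries of global run-on sequencing (GRO-seq), which reads the RNA being made by engaged polymerases in isolated nuclei, and 1 ChIP-seq library of H3K27me3, the repressive histone mark written by Polycomb repressive complex 2. The GRO-seq libraries are named by the batch number that the file header gives them, because a column could be assigned to a medium and a batch but not to a mouse.

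Secretory and membrane proteins fold in the ER with the help of chaperones, and 3 membrane sensors, IRE1, PERK and ATF6, respond when unfolded protein builds up there. IRE1 cuts the Xbp1 messenger so that it encodes an active transcription factor, ATF6 is itself cut into one, and both raise the transcription of chaperones and of the degradation machinery, while PERK acts through translation and ATF4. In mouse intestine, Xbp1 is known for its need in secretory cells such as Paneth cells. Reads over a whole gene body do not separate spliced from unspliced Xbp1, so the data report how much of each gene was transcribed and not the activity of the pathway.

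Summed over all transcript entries, reads were 29128101 in batch 1 and 15787828 in batch 2 of ENRI, and 25839484 and 9245915 in WENRC. In these sums a read shared by entries counts more than once. With 1 transcript per gene, the sums were 18368188 and 10245627 in ENRI and 16302292 and 5868922 in WENRC. Marker genes followed the labels of the media. The summed level of 8 enterocyte markers was 546 and 743 reads per kilobase of transcript and library total (RPKM) in ENRI, against 45.7 and 21.0 RPKM in WENRC, and that of 8 stem cell markers was 14.8 and 6.26 RPKM in ENRI, against 34.3 and 50.0 RPKM in WENRC. Of secretory cells, 7 goblet cell markers summed to 45.1 and 29.0 RPKM in ENRI and 8.40 and 5.57 RPKM in WENRC, while 6 Paneth cell markers summed to 12.4 and 26.4 RPKM in ENRI and 14.9 and 23.4 RPKM in WENRC. Of the 6 tested goblet markers, 5 were higher in ENRI and 1, Clca1, was lower. Clca1 had 0.186 and 0.133 RPKM in ENRI, against 0.630 and 0.757 RPKM in WENRC. Of the 5 tested Paneth markers, 2 were higher in ENRI and 3 lower. Most of the Paneth sum was Defa24, at 9.31 and 20.7 RPKM in ENRI and 12.4 and 18.7 RPKM in WENRC. Pnliprp2 had 2.06 and 2.13 RPKM in ENRI, against 0.156 and 0.176 RPKM in WENRC. Mmp7 had 0.174 and 0.225 RPKM in ENRI, against 0.588 and 0.874 RPKM in WENRC. The sum of 7 enteroendocrine markers was 5.14 and 11.5 RPKM in ENRI, against 4.43 and 6.88 RPKM in WENRC. Of cells outside the epithelium, 9 plasma cell and immune markers summed to 11.2 and 8.37 RPKM in ENRI and 19.1 and 22.6 RPKM in WENRC. Nearly all of that sum was Cd68, at 5.25 and 5.47 RPKM in ENRI and 13.1 and 16.5 RPKM in WENRC, and Sdc1, at 5.80 and 2.64 RPKM in ENRI and 5.31 and 5.03 RPKM in WENRC, while the other 7 markers were each below 0.5 RPKM in all 4 libraries. The sum of 7 mesenchymal markers was 0.923 and 0.827 RPKM in ENRI and 1.49 and 1.00 RPKM in WENRC. Most of it was Acta2, at 0.838 and 0.615 RPKM in ENRI and 1.41 and 0.806 RPKM in WENRC. Taken singly, each of the 7 mesenchymal markers overlapped between the media. No marker was at 0 in all 4 libraries. The enterocyte, stem cell, goblet, plasma cell and immune, and mesenchymal sums did not overlap between the media, while the Paneth and enteroendocrine sums did. Their part in the results below was not tested. Fewer cells of a type and less RNA per cell cannot be told apart in such pooled material.

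Between ENRI and WENRC, no difference in the 10 genes passed the test, and their fitted changes had both signs. The fitted level was higher in ENRI for 5 genes, Edem1, Herpud1, Sdf2l1, Dnajb9 and Xbp1, and lower for 5, Calr, Hsp90b1, Pdia4, Hspa5 and Creld2. The test was limma's moderated test at a Benjamini-Hochberg adjusted p of 0.05 over all genes, a threshold that 0.147% of the tested genes passed. An unadjusted limma p below that threshold was reached by 2 of the 10, Edem1 and Creld2, and by 39% of the tested genes. The median log2 change of the 10 genes was -0.02, against -0.21 over all genes tested. Of the tested genes, 34.3% had a change above 0 and 65.7% a change below 0. Both ENRI libraries lay above both WENRC libraries for 2 of the 10, Sdf2l1 and Edem1, as for 23% of the tested genes. Both ENRI libraries lay below both WENRC libraries for 4 of the 10, Hsp90b1, Calr, Pdia4 and Creld2, as for 49.7% of the tested genes. The 6 genes without overlap compare with 72.7% of the tested genes. The change had the same sign in both batches for 9 of the 10, all but Xbp1, as for 79.5% of the tested genes.

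**Figure D1:**
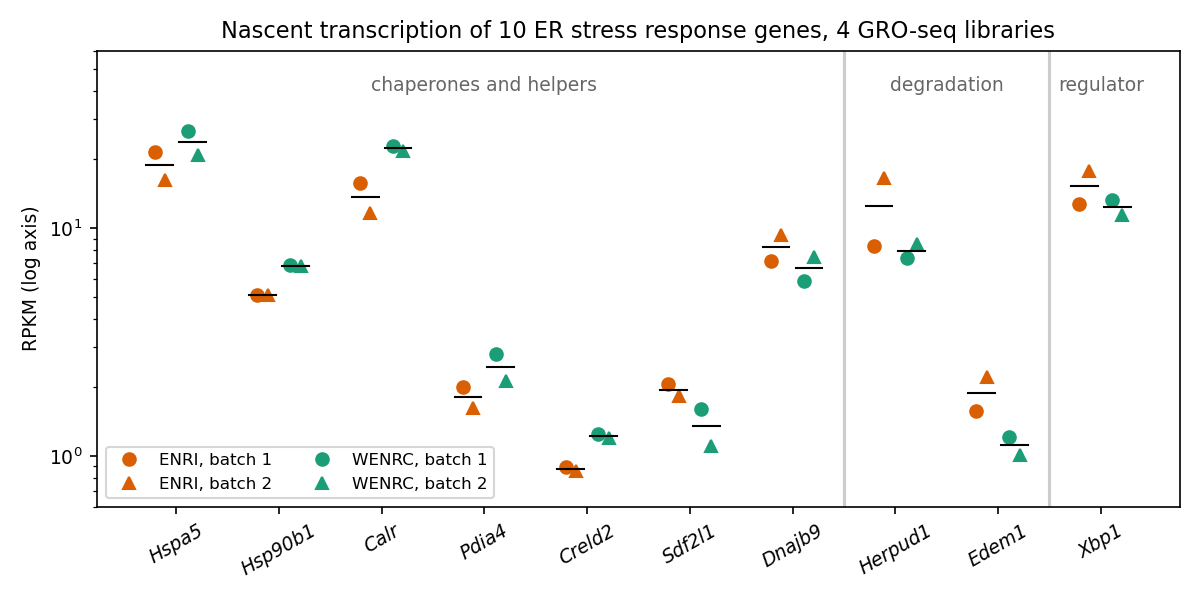
Level of each of the 10 genes in each GRO-seq library, in RPKM on a log axis, with ENRI left of WENRC, circles for batch 1, triangles for batch 2 and a bar for the mean of the 2 libraries. Hspa5 has the highest mean in both media, and the 2 ENRI points lie below both WENRC points for Calr and above both for Edem1.

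Hspa5 encodes BiP, the Hsp70 chaperone of the ER lumen that also holds the stress sensors inactive. It had the highest mean level of the 10 genes in both media, with 21.6 and 16.2 RPKM in ENRI, against 26.7 and 20.9 RPKM in WENRC. The groups overlapped, since batch 1 of ENRI lay above batch 2 of WENRC. The log2 change, ENRI minus WENRC on the log2(RPKM + 0.5) scale that is used for every change below, was -0.33 ± 0.31 (SE) with a limma adjusted p of 0.469. Within batches it was -0.30 and -0.36.

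Hsp90b1 encodes GRP94, the Hsp90 chaperone of the ER. It stood at 5.07 and 5.08 RPKM in ENRI and at 6.88 and 6.80 RPKM in WENRC, so libraries of the same medium differed little and the media did not overlap. The log2 change was -0.40 ± 0.18 (SE), with a limma adjusted p of 0.179. Calr encodes calreticulin, a lectin chaperone that binds calcium and the sugar chains of new glycoproteins. It had 15.8 and 11.7 RPKM in ENRI, against 23.0 and 21.8 RPKM in WENRC, and both ENRI libraries were lower. Its log2 change of -0.70 ± 0.29 (SE; limma adjusted p 0.148) was the largest of the 10 in size on the log2(RPKM + 0.5) scale. It was -0.53 in batch 1 and -0.87 in batch 2. The added 0.5 RPKM shrinks the changes of genes with low levels. With DESeq2, another test of the same libraries, Edem1 had the larger change, 1.05 against -0.44 for Calr.

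Pdia4 encodes ERp72, a disulfide isomerase. It had 2.00 and 1.62 RPKM in ENRI, against 2.80 and 2.13 RPKM in WENRC, and its ENRI libraries lay below its WENRC libraries, with ENRI batch 1 close to WENRC batch 2. The log2 change was -0.35 ± 0.19 (SE), with a limma adjusted p of 0.228. Pdia4 contains the microRNA gene Mir704 on its own strand, which took 7 and 2 reads in ENRI and 13 and 5 reads in WENRC, against 1013 and 444 reads of Pdia4 in ENRI and 1255 and 342 in WENRC. Creld2 encodes a secretory pathway protein that is induced by ER stress. It had 0.898 and 0.855 RPKM in ENRI, against 1.25 and 1.20 RPKM in WENRC, the lowest mean of the 10 in ENRI. Its difference was even, with a log2 change of -0.33 in each batch. The fitted change was -0.33 ± 0.11 (SE), with a limma adjusted p of 0.111. The 95% interval of that change, from the limma fit, ran from -0.63 to -0.03, and was counted on 184 and 95 reads in ENRI and 228 and 78 reads in WENRC.

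Sdf2l1 and Dnajb9, which encode partner proteins of BiP, had higher fitted levels in ENRI, and neither passed the limma test. Sdf2l1 encodes an ER protein that works with BiP and its J-domain partners. It had 2.08 and 1.83 RPKM in ENRI, against 1.60 and 1.11 RPKM in WENRC, and both ENRI libraries were higher. The log2 change was 0.42 ± 0.18 (SE) with a limma adjusted p of 0.169. Sdf2l1 was the gene with the fewest reads in WENRC batch 2, at 136 and 65 reads in ENRI and 93 and 23 in WENRC, and the ratio of its reads per library total in batch 2, ENRI over WENRC, was 1.66 with an exact 95% interval of 1.01 to 2.79 that covers counting error only. Dnajb9 encodes ERdj4, a J-domain co-chaperone of BiP that represses IRE1. It had 7.14 and 9.35 RPKM in ENRI, against 5.87 and 7.44 RPKM in WENRC, and the groups overlapped because batch 2 was the higher in each medium. Its changes within batches were 0.26 and 0.31, and the fitted change was 0.29 ± 0.25 (SE; limma adjusted p 0.437).

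The 2 degradation factors had positive fitted changes that did not pass the limma test, and their change was larger in batch 2. Edem1 encodes a lectin that takes misfolded glycoproteins to degradation. It had 1.58 and 2.21 RPKM in ENRI, against 1.22 and 1.01 RPKM in WENRC, and the groups did not overlap. The log2 change was 0.56 ± 0.18 (SE; 95% interval 0.06 to 1.06) with a limma adjusted p of 0.106, at 0.28 in batch 1 and 0.84 in batch 2. Edem1 was the one gene of the 10 that another test of all 4 libraries called, with a DESeq2 log2 change of 1.05 and adjusted p of 0.0137, a test that called 23.6% of all genes, with 14.7% of all genes called higher in ENRI. edgeR's quasi-likelihood test gave Edem1 an adjusted p of 0.0679, and none of the 10 passed it, against 8.44% of all genes, or 8.03% with the batch as a replicate block. In the authors' deposited table none of the 10 had a false discovery rate below 0.05, against 12.7% of the tested genes, and Edem1 had the lowest, 0.112, with a log2 change of 0.99.

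Herpud1 encodes a membrane protein of the HRD1 degradation complex. It had 8.31 and 16.7 RPKM in ENRI, against 7.42 and 8.51 RPKM in WENRC. ENRI batch 2 stood apart from the other 3 libraries, and ENRI batch 1 lay just below WENRC batch 2. The log2 change was 0.54 ± 0.39 (SE) with a limma adjusted p of 0.351, at 0.15 in batch 1 and 0.93 in batch 2. It was 0.06 without the ENRI library of batch 2 and 1.02 without that of batch 1. Without the ENRI library of batch 1, 3 of the 10 genes passed the limma test, Herpud1, Edem1 and Creld2, as did 49.9% of all tested genes, the remaining ENRI library being assumed to vary as the WENRC pair did. None of the 10 passed without the ENRI library of batch 2, when 5.9% of all genes did, or without either WENRC library, when 0% did.

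Xbp1, the regulator among the 10, had 12.7 and 17.8 RPKM in ENRI, against 13.2 and 11.5 RPKM in WENRC. The ENRI library was the higher in batch 2 and the lower in batch 1, with changes of 0.61 and -0.05. The fitted log2 change was 0.28 ± 0.29 (SE), with a limma adjusted p of 0.499 and a 95% interval of -0.50 to 1.06. Counted on 1504 reads in ENRI and 567 in WENRC, the ratio of reads per library total in batch 2 was 1.55 (exact 95% interval 1.41 to 1.71, counting error only). In batch 1, on 1987 reads in ENRI and 1831 in WENRC, it was 0.963 (0.903 to 1.03).

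**Figure D2:**
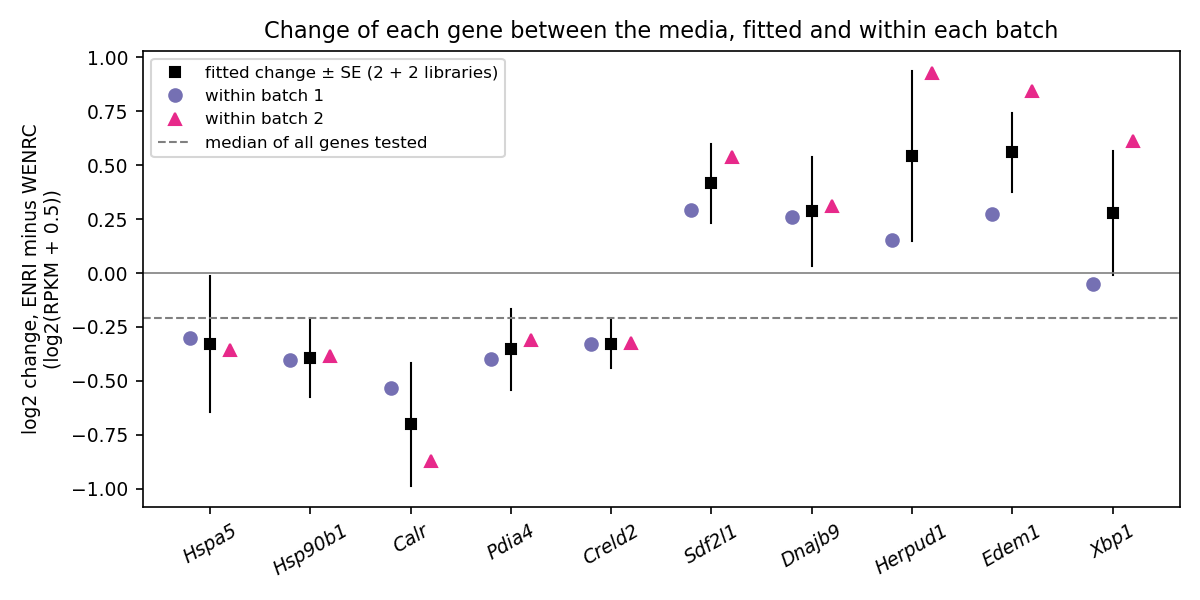
Log2 change of each of the 10 genes, ENRI minus WENRC on the log2(RPKM + 0.5) scale, as fitted (squares, bars of 1 SE, 2 libraries per medium) and within batch 1 (circles) and batch 2 (triangles). The dashed line is the median of all genes tested, -0.21. Creld2 sits at -0.33 in each batch, while Edem1, Herpud1 and Xbp1 are higher in batch 2 than in batch 1.

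Because the median of all genes was below 0, the 10 genes were also read against it. Relative to that median, Calr was at -0.49, Hsp90b1 at -0.19, Pdia4 at -0.15, and Hspa5 and Creld2 at -0.12, while the 5 genes higher in ENRI were between 0.49 and 0.77. The choice of scaling moved the median of all genes to -0.04 under quantile normalization, -0.06 under median centring and -0.003 under DESeq2. Across 15 other settings of the fit, the sign of the fitted change of all 10 genes was the same in every setting, and 8 of the 10 also kept their side of the median of all genes. The exceptions were Hspa5, at -0.29 to 0.04 relative to the median, and Pdia4, at -0.32 to 0.00. Both filter changes, the replicate block in limma and the most read transcript gave the fitted changes of the reported fit exactly. The kept sign carries no information for those settings. The sizes depended on single libraries. Without the ENRI library of batch 2, the log2 change was 0.05 for Xbp1, 0.06 for Herpud1, 0.10 for Dnajb9, 0.37 for Edem1, -0.13 for Hspa5 and -0.23 for Pdia4, and without that of batch 1 it was 0.51 for Xbp1, 0.47 for Dnajb9 and -0.53 for Hspa5. Without the WENRC library of batch 1 it was 0.13 for Dnajb9, -0.16 for Hspa5 and -0.19 for Pdia4, and without that of batch 2 it was 0.22 for Sdf2l1, 0.18 for Xbp1, 0.44 for Dnajb9 and -0.50 for Hspa5.

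Levels were also set against Hspa5 in the same library, a ratio that does not depend on the library total. Herpud1 stood at 0.385 and 1.03 times the Hspa5 level in ENRI, against 0.278 and 0.407 times in WENRC. Edem1 stood at 0.0731 and 0.136 times in ENRI, against 0.0455 and 0.0485 times in WENRC, and Xbp1 at 0.590 and 1.10 times in ENRI, against 0.495 and 0.547 times in WENRC. Dnajb9 was at 0.330 and 0.576 times in ENRI, against 0.220 and 0.356 times in WENRC, and Sdf2l1 at 0.0963 and 0.113 times in ENRI, against 0.0600 and 0.0529 times in WENRC. For these 5 genes the ratio was higher in ENRI than in WENRC in both batches. Hspa5 itself had log2 changes of -0.30 and -0.36 within batches, below the medians of all genes tested, -0.16 and -0.24. How many of all tested genes had a higher ratio in ENRI was not counted. The ratios of Hsp90b1, Pdia4, Creld2 and Calr were lower in ENRI in both batches, by factors of 0.691 for Calr in batch 2 to 0.980 for Pdia4 in batch 2. A ratio of this kind shows unequal change of 2 genes and not which of them changed.

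**Figure D3:**
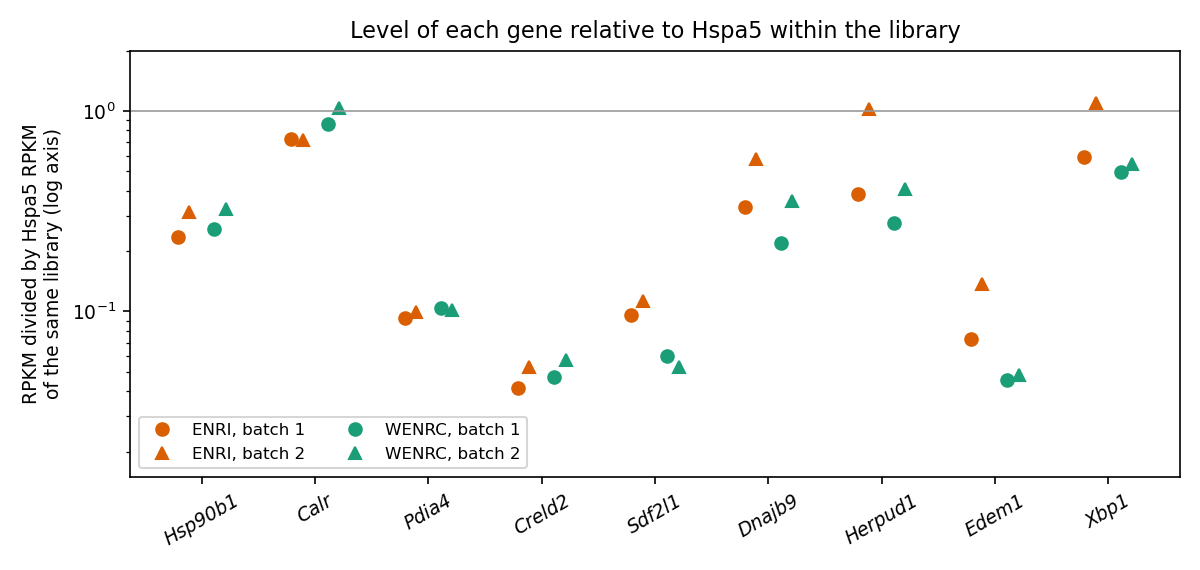
Level of 9 genes divided by the Hspa5 level of the same library, on a log axis, with ENRI left of WENRC. The ratio of Edem1 is 0.0731 and 0.136 in ENRI and 0.0455 and 0.0485 in WENRC, while that of Pdia4 lies between 0.0927 and 0.105 in all 4 libraries.

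The order of the 10 levels differed in part between the media. In ENRI the means ran from Hspa5 (18.9 ± 3.79 RPKM, SD, n = 2) through Xbp1 (15.3 ± 3.57), Calr (13.7 ± 2.89), Herpud1 (12.5 ± 5.91) and Dnajb9 (8.25 ± 1.57), and each of these overlapped its neighbour in the order. Hsp90b1 followed at 5.08 ± 0.00714 RPKM, then Sdf2l1, Edem1 and Pdia4 between 1.81 and 1.96 RPKM, which overlapped one another in order, and Creld2 at 0.877 ± 0.0301 RPKM. In WENRC, Hspa5 (23.8 ± 4.11 RPKM, SD, n = 2) and Calr (22.4 ± 0.866) overlapped at the top and stood above Xbp1 (12.3 ± 1.26) and Herpud1 (7.97 ± 0.769). Hsp90b1 and Dnajb9 overlapped at 6.84 and 6.66 RPKM, Pdia4 stood at 2.46 RPKM, and Sdf2l1, Creld2 and Edem1 each overlapped the next between 1.12 and 1.36 RPKM. Hspa5 lay at percentile 97.7 of the tested genes in ENRI and 98.2 in WENRC, while Edem1 was at percentile 64.8 in ENRI and 34.0 in WENRC.

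Among themselves, the closest profiles over the 4 libraries, as the root mean square difference of centred log2 levels, were those of Hsp90b1 and Creld2 at 0.04 and of Hspa5 and Pdia4 at 0.06. The most distant pair was Calr and Herpud1 at 0.80. Edem1 was nearest to Xbp1 at 0.14. Since the 10 genes went in both directions, their mean profile was nearly flat, and the 5 other tested genes nearest to it, Ric1, Fam217a, Bbip1, Klhl2 and Zfp825, had fitted log2 changes between -0.02 and 0.01 and distances of 0.005 to 0.011 over the 4 libraries.

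The promoters of the 10 genes, all of which matched RefSeq promoter windows of build GRCm38.p6 (250 bases before to 50 after the start), were searched on both strands for sequence elements of the ER stress response. The ER stress response element, ERSE, to which the factor NF-Y and ATF6 or XBP1 are known to bind, was searched as CCAAT, any 9 bases and CCACG. It was found at the promoters of 4 of the 10, Hspa5, Hsp90b1, Calr and Creld2, and in 39 of 32851 promoters in all, or 0.119%, and in 0.169% of the matched tested genes. All 4 are among the genes with the lower level in ENRI. The 10 genes and all elements searched here were chosen from the ER stress response, so matches are description and not a test. Each is given with 20 bases on each side, 5′ to 3′ on the strand of the gene, with the fixed bases of the element in capitals; an element on the other strand reads CGTGG, 9 bases and ATTGG. The windows lie at chr2:34772005-34772063 (plus strand) for Hspa5, chr10:86705618-86705676 and chr10:86705513-86705571 (minus strand) for Hsp90b1, chr8:84847055-84847113 (minus strand) for Calr and chr15:88819500-88819558 (plus strand) for Creld2.
Hspa5: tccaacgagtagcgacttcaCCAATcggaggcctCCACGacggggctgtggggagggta
Hsp90b1, upstream element: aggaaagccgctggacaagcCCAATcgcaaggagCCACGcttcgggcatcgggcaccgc
Hsp90b1, downstream element: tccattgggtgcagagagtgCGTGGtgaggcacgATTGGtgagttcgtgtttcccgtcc
Calr: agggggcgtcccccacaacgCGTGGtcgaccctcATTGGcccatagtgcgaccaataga
Creld2: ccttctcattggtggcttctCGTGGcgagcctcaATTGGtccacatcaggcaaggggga

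The Hspa5 element spans bases -65 to -47 from the start, those of Hsp90b1 -212 to -194 and -107 to -89, that of Calr -162 to -144 and that of Creld2 -126 to -108. With 1 mismatch allowed in the fixed bases, Pdia4 and Herpud1 also matched, as did 1.50% of all promoters and 2.43% of the matched tested genes. Among the 11602 tested genes, 8308 matched a promoter window and 14 of those held an exact ERSE. Of these 14 genes, 13 had a lower and 1 a higher fitted level in ENRI, with none called by limma and a median log2 change of -0.33, against 65.7% lower and a median of -0.21 over all genes tested. The 10 that are not among the genes described here are given with the log2 change of each. They were Ptgdr2 (-1.32), Derl3 (-1.27), Pdia6 (-0.83), Hnrnpa3 (-0.54), Canx (-0.33), Alg12 (-0.33), Syvn1 (-0.32), Pan2 (-0.18), Zfp57 (-0.12) and Dnajc3 (0.03). Creld2 and Alg12 are both counted though they share 1 element. With 1 mismatch allowed, 134 of 202 tested genes were lower and 68 higher, with a median log2 change of -0.26. Over all genes tested, 65.7% were lower and the median was -0.21. A link of the ERSE to these changes was not tested.

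Creld2 shares its element with a neighbour. Alg12, an enzyme of N-glycan synthesis, starts 328 bp away on the other strand, and the element found in its promoter window lies at the same bases, chr15:88819520-88819538 in GRCm38.p6. Alg12 had 0.649 and 0.554 RPKM in ENRI, against 0.935 and 0.830 RPKM in WENRC, so that both ENRI libraries were lower, as for Creld2. Its log2 change was -0.33 ± 0.13 (SE), with a limma adjusted p of 0.135. Head-to-head neighbours within 1 kb were also found for Hsp90b1 (BC030307, at 367 bp) and Dnajb9 (the microRNA gene Mir5627, at 245 bp). BC030307 was too low to be tested, and Mir5627 rested on 1 and 0 reads in ENRI and 9 and 5 reads in WENRC.

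Herpud1 carried a different pair of elements. ERSE-II was searched as ATTGG, any 1 base and CCACG. It was found in 12 of 32851 promoters (0.0365%) and in 0.0963% of the matched tested genes. Of the 8 tested genes with ERSE-II, 5 were lower and 3 higher in ENRI. Among the 10 genes only Herpud1 held it, at bases -52 to -42. The C/EBP-ATF element, searched as TGATGCAA, to which ATF4 with a C/EBP partner is known to bind, was found in 294 promoters (0.895%; 0.782% of the matched tested genes) and again in Herpud1, on the other strand at bases -112 to -105. The windows lie at chr8:94386357-94386407 and chr8:94386297-94386344 on the plus strand, with the fixed bases in capitals.
Herpud1, ERSE-II: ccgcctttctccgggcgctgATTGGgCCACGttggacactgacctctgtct
Herpud1, C/EBP-ATF element: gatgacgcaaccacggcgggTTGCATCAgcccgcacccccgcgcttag

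The UPRE core, searched as TGACGTGG, was in none of the 10 windows. It was in 0.676% of all promoters and 1.07% of the matched tested genes. Of the 89 tested genes with it, 50 were lower and 39 higher in ENRI. CCACG on its own was in 9 of the 10 windows, all but Xbp1, but also in 32.8% of all promoters and 51.8% of those of the tested genes that matched a window. Edem1, with the largest positive log2 change of the 10 genes, held CCACG 2 times and none of the longer elements. Its 250 bases before the start, chr6:108828391-108828640 on the plus strand, are shown for comparison, and 76% of the whole window was G or C.
Edem1: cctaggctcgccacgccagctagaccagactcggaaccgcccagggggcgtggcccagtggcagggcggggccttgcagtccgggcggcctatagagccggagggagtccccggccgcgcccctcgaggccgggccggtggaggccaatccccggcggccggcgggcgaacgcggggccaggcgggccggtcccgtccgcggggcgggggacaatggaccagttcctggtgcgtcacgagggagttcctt

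No H3K27me3 region was listed at the start of any of the 10 genes. Neither the authors' broad nor their narrow lists had one within 1, 2 or 5 kb of its start in either medium. Within 2 kb, a broad region was listed for 2.90% of the tested genes in ENRI and 3.13% in WENRC, and a narrow one for 6.45% in ENRI and 6.19% in WENRC. Within 5 kb these shares were 4.33% in ENRI and 4.35% in WENRC for broad regions, and 11.3% in ENRI and 9.86% in WENRC for narrow ones. The nearest region to any of the 10 starts was 11.9 kb from Dnajb9, a narrow region of 1210 bp in ENRI, and no region lay within a gene body. Each medium had 1 such library, and the lists hold only regions past the authors' thresholds.

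Beyond the 10 genes, other ER genes were counted from lists by role. Of 21 tested folding factors, 17 were lower and 4 higher in ENRI, none called by limma, with a median log2 change of -0.37. Their 2 extremes went in opposite directions. Ero1l, the oxidase that feeds disulfide formation, had 2.66 and 3.07 RPKM in ENRI, against 11.2 and 10.7 RPKM in WENRC, with no overlap and a log2 change of -1.77 ± 0.19 (SE; limma adjusted p 0.0560, edgeR adjusted p 0.0424). P4hb, the disulfide isomerase that is also a subunit of the microsomal triglyceride transfer complex, had 22.0 and 41.7 RPKM in ENRI, against 12.0 and 8.69 RPKM in WENRC, with a log2 change of 1.53 ± 0.42 (SE; limma adjusted p 0.0823). Pdia6 and Fkbp2 had changes of -0.83 and -0.73. Of 23 tested degradation genes 11 were higher and 12 lower, none called by limma, with a median of -0.01, and 14 of 23 lay above the median of all genes. The median of these degradation genes was 0.24 under edgeR and 0.27 under DESeq2. Of these, the derlin Derl3 was lowest at -1.27, and Ube2j2, Os9 and Edem2 were at 0.64, 0.45 and -0.36.

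Sensors and transcription factors of the response differed among themselves, with 6 of 14 higher, 8 lower, none called by limma and a median of -0.18. Creb3l3, an ER-bound transcription factor of liver and enterocytes, had 14.0 and 39.1 RPKM in ENRI, against 1.75 and 1.08 RPKM in WENRC, with no overlap and a log2 change of 3.67 ± 0.55 (SE; limma adjusted p 0.0560, edgeR adjusted p 0.0424). Its relative Creb3l2 had 1.97 and 2.65 RPKM in ENRI, against 0.701 and 0.579 RPKM in WENRC, at 1.29 ± 0.17 with the same adjusted p from each tool. Ern2, the IRE1 form of mucosal epithelium, had 0.538 and 0.636 RPKM in ENRI, against 1.25 and 1.60 RPKM in WENRC, at -0.82 ± 0.15 (SE; limma adjusted p 0.0565). Mbtps2, a protease that releases ATF6, was at -0.59.

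The next lists are read against the 65.7% of all tested genes that were lower in ENRI. Of 22 import genes 17 were lower and 5 higher (median -0.32), with Spcs3 at -0.82, Ssr1 at -0.78, Sec61b at -0.78 and Sec11c at -0.72. Of 18 N-glycosylation genes 13 were lower and 5 higher (median -0.35), with Ost4 at 0.95, Alg2 at -0.85, Alg5 at -0.78 and Rpn2 at -0.72. Of 19 genes of vesicle exit and retrieval 14 were higher and 5 lower, against 34.3% of all tested genes higher, with a median of 0.67. That median was 0.35 without the ENRI library of batch 2 and 0.87 without that of batch 1, and within batches it was 0.21 and 0.89. Sar1b, the GTPase that starts COPII vesicles and is needed for chylomicron export, had 3.41 and 6.59 RPKM in ENRI, against 1.81 and 1.35 RPKM in WENRC, at 1.35 ± 0.34 (SE; limma adjusted p 0.0736). Arfgap3, Sec23a and Sec24a were at 0.92, 0.90 and 0.88. No gene of these 3 lists was called by limma, and edgeR called none of the exit genes. The authors' deposited table had 4 of the 19 exit genes at a false discovery rate below 0.05, all higher. Of all 11602 tested genes it had 947 higher at that rate. DESeq2 called 10 of the 19 exit genes higher and none lower, against 14.7% of all genes called higher.

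In the PERK and ATF4 branch, 10 of 12 genes were lower and 2 higher, with a median of -0.29, and 1 was called by limma. The sign was the same in both batches for 6 of the 12, against 79.5% of all tested genes, and both ENRI libraries lay below both WENRC libraries for 5 of the 12, against 49.7%. The median was -0.04 under DESeq2 and -0.06 under edgeR, and -0.18 without the WENRC library of batch 2, against -0.53 without that of batch 1. Chac1, an ATF4 target that degrades glutathione, fell to 0.468 and 0.513 RPKM in ENRI, against 7.22 and 9.40 RPKM in WENRC, a log2 change of -3.14 ± 0.18 (SE; limma adjusted p 0.0374). The change of Chac1 was -2.96 to -3.32 with any 1 library left out, and its limma adjusted p was 0.317 without the WENRC library of batch 1, 0.414 without that of batch 2 and 0.0743 with the replicate block. edgeR gave Chac1 an adjusted p of 0.0424 without the block and 0.0102 with it. Atf5 was at -2.20, Asns at -1.88 and Sesn2 at -1.13, each with both ENRI libraries below both WENRC libraries and limma adjusted p values of 0.0518, 0.0523 and 0.0756. Herpud1, whose window holds the C/EBP-ATF element, was at 0.54. Of the 65 tested genes with that element, 43 were lower and 22 higher in ENRI. Their median was -0.21, against -0.21 over all genes tested, and a link of the element to these changes was not tested.

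**Figure D4:**
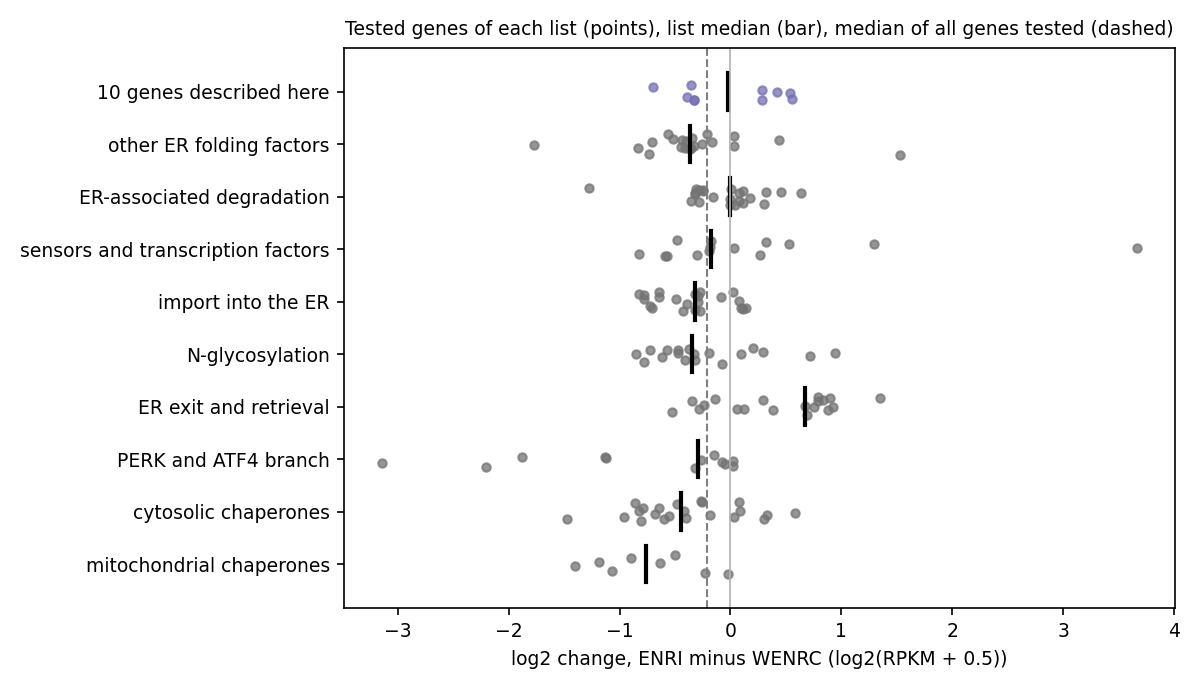
Log2 change, ENRI minus WENRC on the log2(RPKM + 0.5) scale, of each tested gene (points) in the 10 genes described here and in 9 lists by role, with the median of each list (bar) and of all genes tested (dashed, -0.21). ER exit genes have a median of 0.67 and ER folding factors one of -0.37.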

How the data were processed

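For each RefSeq transcript (mm9) the authors deposited a scaled read signal, counted with HOMER over gene bodies, per the file headers. Their processing notes also name FastQC, Bowtie, Bowtie2, HOMER 4.3 and edgeR. Strand handling and coordinate base are not given in the sources used here. Each low value was a whole multiple of the worth of 1 read in its library (100% whole, tolerance 0.1), which returned read counts from the deposited signal. The 4 deposited RPKM columns are a second measure of these libraries. They enter only a planned fit that is mentioned below without its values. Log2 fold changes and p-values (FDR) in the authors' deposited table came from edgeR with batch as a term, per the file headers. H3K27me3 regions, with their deposited fold ratio over input and score, come from the authors' HOMER calls on 1 library per medium, per the file headers.

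RPKM was recomputed from scaled reads, length and column total, for the longest transcript of a symbol. limma 3.58.1 (R 4.3.3, mean trend) tested log2(RPKM + 0.5) of genes reaching 0.5 RPKM in 2 or more libraries, at a Benjamini-Hochberg adjusted p of 0.05. edgeR 4.0.16 and DESeq2 1.42.0 on recovered reads were alternatives, and the scripts were tested on simulated data. The p-values measure the spread between 2 libraries per medium. In limma the variance of each gene, and with it the SE, was drawn towards the trend over all genes. The titles would pair libraries by mouse, but a column could be tied only to a batch, so batch served as the replicate block. Deviations of the batch 1 libraries from their group means correlated at 0.0126. Named genes were the 10 members, up to 4 per list by size of change with all called genes, head-to-head neighbours, the 5 nearest profiles and, chosen after their values were seen, the ERSE genes. Members and lists were chosen with earlier results of these data known. Protein sequences were not used here.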

Additional observations from a re-analysis of the deposited data

How the results depend on the processing

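None of 150 alternative values of the 10 genes changed sign. Those from both filter changes, the replicate block in limma and the most read transcript equalled the reported values. Of 135 alternative medians of the 9 lists 9 changed sign, all of degradation genes or of sensors and factors. The medians of these lists ran from -0.06 to 0.27 and from -0.25 to 0.02, in that order. The median of the 10 genes ran from -0.08 to 0.27. Genes called by limma, 17 in the reported fit (7 higher and 10 lower in ENRI), were 1 with a pseudocount of 0.1, 0 without the filter, 42 with a filter of 1 RPKM and 929 after quantile normalization (507 higher, 422 lower). Median centring gave 7 higher and 5 lower. With the replicate block in limma the count was 0, and 4521 genes had an unadjusted p below 0.05 in the reported fit. edgeR called 979 genes without a block (650 higher, 329 lower) and 932 with the replicate block, and DESeq2 2738 (1707 higher, 1031 lower). Called genes of the 9 lists, 1 in the reported fit, were 0 with a pseudocount of 0.1, without the filter, with median centring and with the replicate block in limma, 3 with the 1 RPKM filter, 11 after quantile normalization, 7 with edgeR with or without the replicate block, and 36 with DESeq2. Of the 10 genes DESeq2 called 1, Edem1. The block changed no call among the 10. The planned fit on the deposited RPKM columns was run, called more genes than the reported fit and none of the 10, and is left out, because those columns are a second measure of the same libraries. The cause of these shifts was not tested.

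Leaving out 1 library gave 0 to 5794 genes called, 0 to 3 of the 10 genes, and 0 to 71 list genes. The high ends came without the ENRI library of batch 1, and without either WENRC library no gene was called. Allowing 1 mismatch in the ERSE gave 6 of the 10 genes in place of 4. No H3K27me3 region appeared at any of the 10 starts with the narrow lists or at 1 or 5 kb. Depth limits Sdf2l1 and Creld2 most, with 23 and 78 reads in WENRC batch 2.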

Other observations

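Chaperones outside the ER were counted in the same way, against the 65.7% of all tested genes that were lower in ENRI. Of 22 tested cytosolic chaperones 16 were lower and 6 higher, with a median log2 change of -0.45, and of 8 mitochondrial chaperones and proteases all 8 were lower, with a median of -0.76, against -0.21 over all genes tested. None was called by limma. The cytosolic median was -0.25 without the ENRI library of batch 2 and -0.71 without that of batch 1. Hsp90ab1, the constitutive cytosolic Hsp90, had 30.5 and 15.5 RPKM in ENRI, against 56.6 and 66.1 RPKM in WENRC, at -1.47 ± 0.44 (SE; limma adjusted p 0.0921). Hsp90aa1, Cct3 and Tcp1 were at -0.96, -0.86 and -0.82. Lonp1, the protease of the mitochondrial matrix, had 3.02 and 2.25 RPKM in ENRI, against 7.66 and 7.81 RPKM in WENRC, at -1.41 ± 0.21 (SE; limma adjusted p 0.0560, edgeR adjusted p 0.0424). Hspd1, Hspe1 and Hspa9, the mitochondrial Hsp60, Hsp10 and Hsp70, were at -1.19, -1.07 and -0.89. The summed level of the cytosolic list was 186 and 97.8 RPKM in ENRI, against 227 and 196 RPKM in WENRC, and the part of the marker sums in these values was not tested.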
